A study of Homo sapiens with 10 samples.

Results

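Bone morphogenetic proteins (BMPs) are secreted ligands of the TGFβ family. They bind pairs of type I and type II receptor kinases, which phosphorylate SMAD1, SMAD5 and SMAD9, and these move to the nucleus with SMAD4. Among the genes best known to be switched on by this route are the ID genes, which encode helix-loop-helix proteins without a DNA-binding region, and the feedback inhibitors SMAD6, SMAD7 and BAMBI. In the embryo, BMP from the septum transversum and FGF from the cardiac mesoderm direct foregut endoderm to the liver fate, and differentiation protocols copy this step.

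The 10 genes described here are 3 BMP ligands (BMP2, BMP4 and BMP7), the pseudoreceptor BAMBI, the 4 ID genes (ID1 to ID4) and the inhibitory SMADs SMAD6 and SMAD7. They were taken by symbol, and all 10 were found among the 12125 genes of the table. The cells were of the human embryonic stem cell (hESC) line H1, kept as a monolayer on Matrigel. RNA-seq was made daily from day 0 to day 3, every other day from day 5 to day 13, and on day 21, with 1 bulk library for each of these 10 days and no replicate. Day 0 was untreated, in mTeSR1 medium. Days 1, 2 and 3 had Activin A at 100 ng per ml. Days 5 and 7 had BMP2 at 20 ng per ml with FGF4 at 30 ng per ml. Days 9 and 11 had HGF and KGF, both at 20 ng per ml, and day 21 had Oncostatin M (OSM) at 20 ng per ml. The labels place day 13 under OSM, whereas the protocol steps of 3, 4 and 6 days put it at the end of HGF and KGF. The BMP2 given to the cells was a protein and adds no BMP2 RNA. Activin A was withdrawn, FGF4 was added and the supplement gained insulin when BMP2 was added, so the parts of these changes cannot be told apart. By the study's methods, the base medium also changed from mTeSR1 to RPMI/B27 with Activin A, and to a hepatocyte culture medium with OSM. There too, factor and base medium cannot be told apart.

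Values are GC-normalized scores in whole numbers, which sum to between 2330948 and 2362740 per library. They show no depth, and they are not scaled to gene length, so levels are compared between days and not between genes. Changes are differences of log2(value + 1), which understate the change of low genes. Since each day has 1 library, no difference has a replicate check and no p-value is given. As a measure of the spread, the standard deviation (SD) of the log2 difference between days 9 and 11, which share a medium, was 0.63 for genes with a mean value of 10 to 50, 0.40 from 50 to 100, 0.32 from 100 to 200, 0.28 from 200 to 500 and 0.28 from 500 to 1100. It also holds any true change between these days, and 9 of the 10 genes were lower at day 11 than at day 9. A gene was counted as changed when log2(value + 1) differed by at least 2 (4-fold) and the larger value was at least 50. The share of all genes that met the same rule is given beside each count. None of the 10 genes came near the maximum of the scale, which is shared by all libraries, since their highest value was 1000. In bulk libraries, fewer cells of a type and less RNA per cell cannot be told apart.

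The labelled stages were checked against summed marker values. The sum of 4 pluripotency markers was 8663 in the untreated cells and 42 on day 21, and that of 4 definitive endoderm markers was 11 in the untreated cells and 2574 by day 3. The sum of 6 hepatic markers was 119 on day 3, 28184 on day 7 and 64966 on day 21, with AFP at the ceiling of the scale (18734) from day 7 and TTR from day 9. Markers of other cells were also present. All 7 stromal markers were found, and for days 3, 5, 7, 13 and 21 their sums were 309, 666, 4294, 19906 and 23049. Of 7 endothelial markers 6 were found, with sums of 658, 555, 389, 2010 and 1282 for those days, and EMCN was listed at 0 on days 5 and 7. The untreated cells already had a stromal sum of 400 and an endothelial sum of 587, of which KDR made up 517. Only 2 of 5 macrophage markers were found, and PTPRC was listed at 0 on days 5 and 7. The part of these cells in the values below was not tested.

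Of the 10 genes, 6 rose at least 4-fold between day 3 and day 5, the first library with BMP2, namely BAMBI, ID2, ID3, ID4, SMAD6 and BMP7, and none fell. Of all 8767 genes past the filter, 2.85% rose and 2.24% fell by this rule. The filter left 9 of the 10 genes for this comparison, since BMP4 was under 50 on both days. BMP7 (28 on day 3) and ID4 (20 on day 3) passed it only through their day 5 values. Each of the 10 had a larger value on day 5 than on day 3, and the median of their log2 differences was 2.42, against -0.02 for all genes. The upstream sequence is shown for the 3 of these genes that held a match to a SMAD motif. Sequences from RefSeq were read for 8 of the 10 genes. Those of BMP2 and BMP7 were not analysed here. The 250 bases before each start were searched on both strands for GGCGCC, a GC-rich element bound by SMAD1 and SMAD5, and for CAGAC, the SMAD half-site. Capitals mark the matches. The windows lie on build GRCh38.p14 at chr10:28677271-28677520 (plus strand, BAMBI), chr1:23559502-23559751 (minus strand, ID3) and chr6:19837120-19837369 (plus strand, ID4).
BAMBI: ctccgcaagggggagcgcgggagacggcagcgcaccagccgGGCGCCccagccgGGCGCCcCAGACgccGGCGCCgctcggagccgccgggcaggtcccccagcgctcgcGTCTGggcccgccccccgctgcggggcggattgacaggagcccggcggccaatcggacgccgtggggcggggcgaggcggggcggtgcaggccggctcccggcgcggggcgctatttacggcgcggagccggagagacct
ID3: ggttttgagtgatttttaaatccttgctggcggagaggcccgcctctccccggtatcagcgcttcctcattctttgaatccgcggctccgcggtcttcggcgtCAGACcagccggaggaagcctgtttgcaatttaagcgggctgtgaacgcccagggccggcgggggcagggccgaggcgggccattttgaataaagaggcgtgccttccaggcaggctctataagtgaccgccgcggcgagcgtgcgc
ID4: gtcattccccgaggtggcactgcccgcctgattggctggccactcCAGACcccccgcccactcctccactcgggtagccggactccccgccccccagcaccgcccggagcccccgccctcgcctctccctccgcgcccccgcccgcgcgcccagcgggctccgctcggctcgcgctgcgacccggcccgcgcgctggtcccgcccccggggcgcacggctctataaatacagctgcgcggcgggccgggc

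BAMBI held 3 copies of GGCGCC and 2 of CAGAC, and 1 base lies between a GGCGCC and a CAGAC. ID3 and ID4 each held 1 CAGAC and no GGCGCC. ID1, ID2 and SMAD6 held neither. Of the genes that did not rise 4-fold by day 5, BMP4 held 1 GGCGCC and 2 CAGAC over its 3 windows, and SMAD7 held 3 CAGAC over its 3 windows. In all, 5 of the 8 genes held CAGAC and 2 held GGCGCC, in genes that rose and in genes that did not. Among 35116 human promoter windows of this length, 16.4% held GGCGCC and 38.0% held CAGAC, so a single CAGAC is common. These shares are per window, while the counts for the 8 genes are per gene over 12 windows, so the 2 cannot be compared directly. Matches in letters are a description. They say nothing of binding in these cells, and enhancers farther away were not searched.

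**Figure D1:**
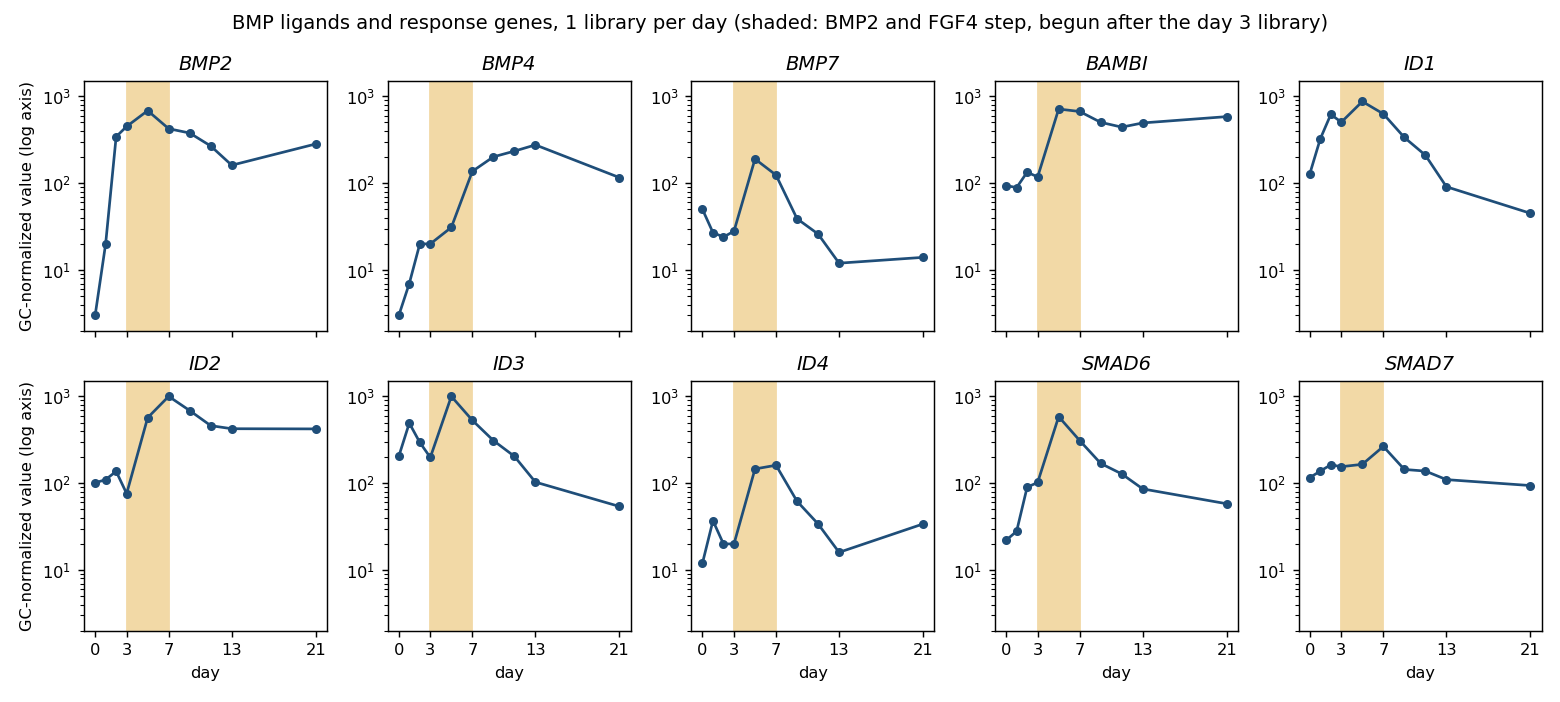
GC-normalized value (log axis) of each of the 10 genes against the day, 1 library per point. The shading marks the step with BMP2 and FGF4, which began after the day 3 library, an Activin A sample, and ended at day 7. BMP7, BAMBI, ID1, ID3, ID4, SMAD6 and SMAD7 had their 2 highest values at days 5 and 7.

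Among the ligands, BMP2 was on before BMP2 protein was given. In order of the days within each medium, BMP2 (ENSG00000125845, chromosome 20 from 6748311 to 6760910 in the intervals of the table) had values of 3 before treatment, 20, 343 and 450 on the Activin A days, 684 and 424 with BMP2, 378 and 268 with HGF and KGF, 161 on day 13 and 283 on day 21. Its log2 difference from day 0 to day 3 was 6.82, and 0.19% of all genes rose as far. The step from day 3 to day 5 was smaller, 0.60, which 14.8% of genes matched, and day 7 differed from day 3 by -0.09, within the spread. The BMP2 transcript was thus already high under Activin A, and its highest value was in the first BMP2 library.

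BMP4, which like BMP2 can specify liver, had a different course. BMP4 (ENSG00000125378, chromosome 14 from 54416454 to 54423529) had values of 3 before treatment, 7, 20 and 20 on the Activin A days, 31 and 137 with BMP2, 201 and 234 with HGF and KGF, 276 on day 13 and 116 on day 21. It was the 1 gene of the 10 that rose 4-fold between days 5 and 7, by 2.11, where 2.25% of all genes rose by that rule, and the 1 gene with its peak outside days 5 and 7. The sum of the stromal markers had its first large rise over the same interval, from 666 to 4294, mostly from COL3A1 (111 to 2643) and COL1A1 (306 to 1107). LUM (43 to 145), PDGFRA (75 to 286) and POSTN (48 to 62) also rose, while DCN (30 to 9) and PDGFRB (53 to 42) fell. The sum of the hepatic markers rose over this interval too, from 3533 to 28184. The part of stromal or of hepatic cells in the BMP4 value was not tested.

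BMP7 (ENSG00000101144, chromosome 20 from 55743804 to 55841684), a ligand best known from the kidney and eye, peaked in the BMP2 step and was low on both sides of it. It had values of 50 before treatment, 27, 24 and 28 on the Activin A days, 190 and 124 with BMP2, 39 and 26 with HGF and KGF, 12 on day 13 and 14 on day 21. The log2 difference was 2.72 from day 3 to day 5 and -3.27 from day 7 to day 13, and 0.776% of genes fell as far as the latter.

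All 4 ID genes had their highest value in the BMP2 step, ID1 and ID3 on day 5 and ID2 and ID4 on day 7. On day 1, ID1, ID3 and ID4 were already more than 2-fold above their untreated values. ID1 (ENSG00000125968, chromosome 20 from 30193086 to 30194318) had values of 128 before treatment, 324, 619 and 504 on the Activin A days, 872 and 628 with BMP2, 336 and 210 with HGF and KGF, 91 on day 13 and 45 on day 21. It was already 1.97 higher on the log2 scale at day 3 than at day 0. Its step from day 3 to day 5 was 0.79, and day 7 stood within the spread of day 2. Of the 9 steps between neighbours in the order of its values, 7 were larger than 1 SD.

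ID3 (ENSG00000117318, chromosome 1 from 23884409 to 23886285) had values of 204 before treatment, 492, 295 and 198 on the Activin A days, 1000 and 530 with BMP2, 310 and 204 with HGF and KGF, 103 on day 13 and 54 on day 21. Its first high value, at day 1, was lost by day 3, when it differed from day 0 by -0.04. The rise to day 5 was 2.33, and days 7 and 1 did not differ beyond the spread.

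ID2 (ENSG00000115738, chromosome 2 from 8818975 to 8824583) had values of 101 before treatment, 110, 137 and 76 on the Activin A days, 568 and 1000 with BMP2, 686 and 460 with HGF and KGF, 424 on day 13 and 422 on day 21. Its log2 differences from day 3 were the largest of the 10 genes, 2.89 at day 5 and 3.70 at day 7. It was lower by 1.24 on day 13 than on day 7 but still above its values up to day 3, and days 11, 13 and 21 lay within the spread of each other.

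ID4 (ENSG00000172201, chromosome 6 from 19837617 to 19840915) had values of 12 before treatment, 37, 20 and 20 on the Activin A days, 146 and 161 with BMP2, 62 and 34 with HGF and KGF, 16 on day 13 and 34 on day 21. It rose by 2.81 from day 3 to day 5 and fell by 3.25 from day 7 to day 13. Outside days 5, 7 and 9 its values were under 40, where the spread is widest.

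Of the inhibitors, SMAD6 (ENSG00000137834, chromosome 15 from 66994670 to 67074338), which acts mainly on the BMP branch, had values of 22 before treatment, 28, 90 and 102 on the Activin A days, 584 and 310 with BMP2, 169 and 128 with HGF and KGF, 86 on day 13 and 58 on day 21. It rose by 2.16 from day 0 to day 3 and by a further 2.51 to day 5, and it was lower in each later library than in the one before. SMAD7 (ENSG00000101665, chromosome 18 from 46446223 to 46477081), which restrains both the TGFβ and BMP branches, had values of 116 before treatment, 138, 163 and 155 on the Activin A days, 165 and 265 with BMP2, 144 and 138 with HGF and KGF, 110 on day 13 and 94 on day 21. In the order of the SMAD7 values, only the step from day 7 to the next was over 1 SD, and the other 8 of 9 were within it. Days that are not neighbours in that order can differ by more, as 163 on day 2 and 94 on day 21. The difference between day 3 and day 5 was 2.51 for SMAD6 and 0.09 for SMAD7, without a replicate for either.

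BAMBI (ENSG00000095739, chromosome 10 from 28966271 to 28971868), which resembles a type I receptor but lacks the kinase, had values of 94 before treatment, 89, 134 and 118 on the Activin A days, 714 and 669 with BMP2, 502 and 442 with HGF and KGF, 494 on day 13 and 584 on day 21. After the step of 2.59 from day 3 to day 5, all 6 libraries lay between 442 and 714, and in the order of these values each neighbour was within 1 SD of the next. Between days 7 and 13, BAMBI had the smallest change of the 10 genes, -0.44.

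Set against the Activin A days, the values at days 5 and 7 were both above those at days 1, 2 and 3 for 9 of the 10 genes (all but BMP2) and below them for none. Of all 10746 genes with a value of at least 50, 22.8% lay above and 25.7% below. Both were also above days 9, 11 and 13 for 8 genes (all but BMP4 and ID2), against 24.6% of all genes, and below them for BMP4 alone, against 20.0%. For BMP7, BAMBI, ID1, ID3, ID4, SMAD6 and SMAD7, 7 of 10, days 5 and 7 were above all 8 other libraries, which held for 4.16% of all genes. The gap was within 1 SD for SMAD7 (165 on day 5, 163 on day 2) and ID1 (628 on day 7, 619 on day 2). It was also within 1 SD for ID3 (530 on day 7, 492 on day 1) and BAMBI (669 on day 7, 584 on day 21). With a difference of means of at least 1 on the log2 scale also required, 7 genes instead of 9 lay above days 1, 2 and 3. The share of all genes under that rule was not computed. The highest value was at day 5 or 7 for 9 of the 10, against 16.6% of all genes. The days are time points of 1 culture course and not replicates, and the genes were chosen with earlier results of these data known. The median span between the highest and lowest library was 4.03 on the log2 scale for the 10 genes and 1.65 for the 10746.

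**Figure D2:**
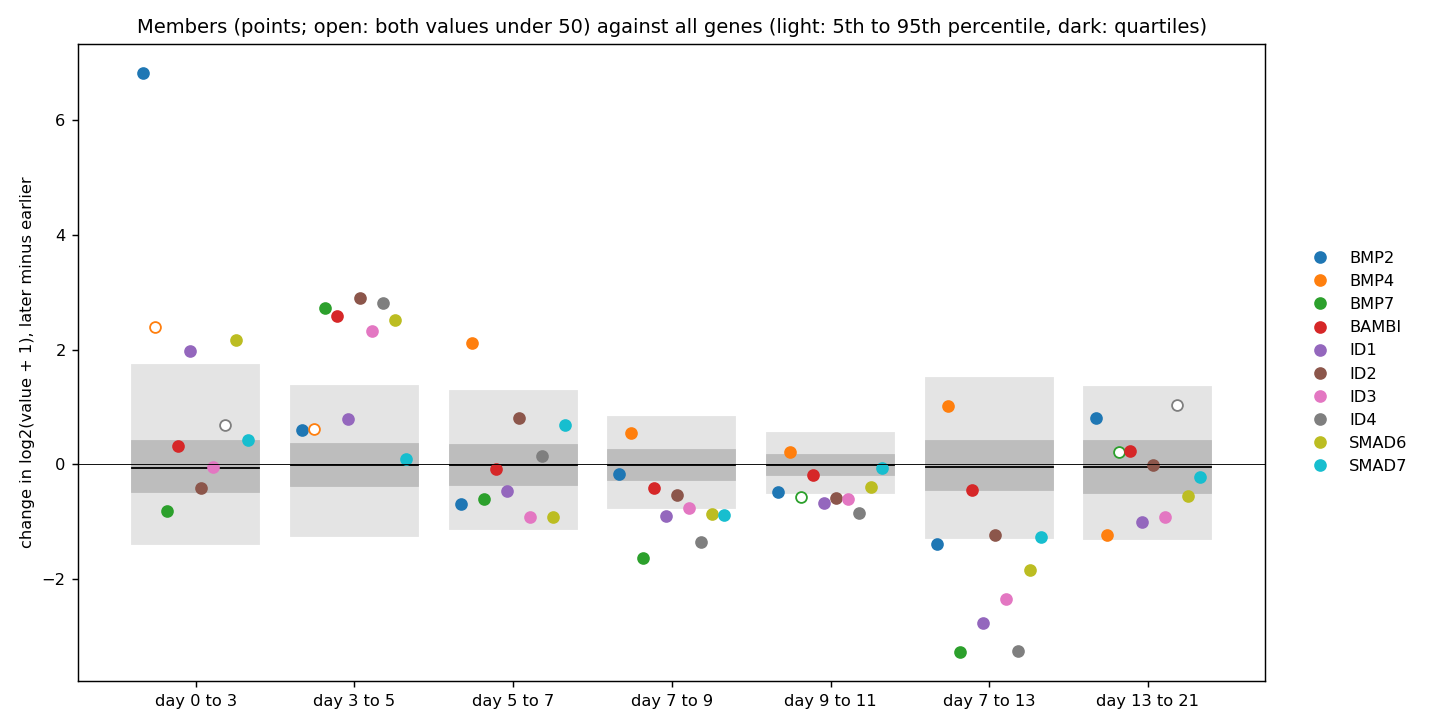
Change in log2(value + 1) of the 10 genes (points) for 7 pairs of days, over bands of all genes past the filter (light, 5th to 95th percentile; dark, quartiles; line, median), with open points where both values were under 50. From day 3 to day 5 BAMBI, ID2, ID3, ID4, SMAD6 and BMP7 lay above the 95th percentile of all genes, and from day 7 to day 13 all but BMP4 were below 0.

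Over the Activin A days, from day 0 to day 3, BMP2 and SMAD6 rose at least 4-fold and none of the 10 fell, against 3.94% and 2.16% of all genes, with ID1 just short at 1.97. With a pseudocount of 5 in place of 1, SMAD6 fell just short as well, at 1.99, and the count was 1. ID4 and BMP4 were under 50 on both days. Between day 3 and day 7, BMP4, BMP7, BAMBI, ID2 and ID4 rose at least 4-fold and none fell, against 5.63% and 4.41% of all genes. ID3 (1.42) and SMAD6 (1.59) were above day 3 but short of 4-fold at day 7, since both were lower at day 7 than at day 5, each by 0.91. Days 3 and 5 and days 3 and 7 share the day 3 library, so the 2 comparisons are not independent.

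Once BMP2 and FGF4 were replaced by HGF and KGF, most of the 10 genes were lower. Some were falling before that, since from day 5 to day 7, with BMP2 still given, 6 of the 10 were lower. The median difference over those days was -0.28, against -0.02 for all genes. Between day 7 and day 9 none of the 10 changed 4-fold, against 0.757% of all genes higher and 0.245% lower. At such shares, none among 10 genes does not set them apart from the rest. Yet 9 of 10 were lower, and their median difference was -0.82. For all genes the median was -0.02 and the 5th percentile -0.76. BMP7 (-1.64) and ID4 (-1.36) fell at least 2-fold, as did 2.59% of all genes. Between day 9 and day 11, under 1 medium, no gene of the 10 fell 2-fold, against 0.568% of all genes, but the median was again below 0, at -0.53. The SD is drawn from these same libraries, so it is no yardstick here. The share of all genes that fell as far was 2.17% for ID1 (-0.68), 3.07% for ID3 (-0.60), 3.45% for ID2 (-0.58) and 1.1% for ID4 (-0.85). It was 5.32% for BMP2 (-0.49), 8.63% for SMAD6 (-0.40), 25.5% for BAMBI (-0.18) and 41.8% for SMAD7 (-0.06). BMP7 was under 50 on both days. By day 13, BMP7, ID1, ID3 and ID4 were at least 4-fold below day 7 and none was 4-fold above, against 2.46% and 3.08% of all genes. At least 2-fold below were 8 of 10, all but BMP4 and BAMBI, against 8.21% of all genes. BMP4 had doubled, with a difference of 1.01. BMP2, BMP7, ID1 to ID4, SMAD6 and SMAD7 were lower in each of these 3 libraries than in the one before. The share of all genes with such a steady fall was not computed. At day 13 BMP7, ID1, ID3 and SMAD7 were below their day 0 values, SMAD7 by less than the spread.

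The rise into the step and the fall after it were set side by side over 4 different libraries. BMP7, ID2, ID3, ID4 and SMAD6 were at least 2-fold higher at day 5 than at day 3 and at least 2-fold lower at day 13 than at day 7, which is 5 of the 9 genes past the filter and 2.54% of the 7871 genes past it.

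**Figure D3:**
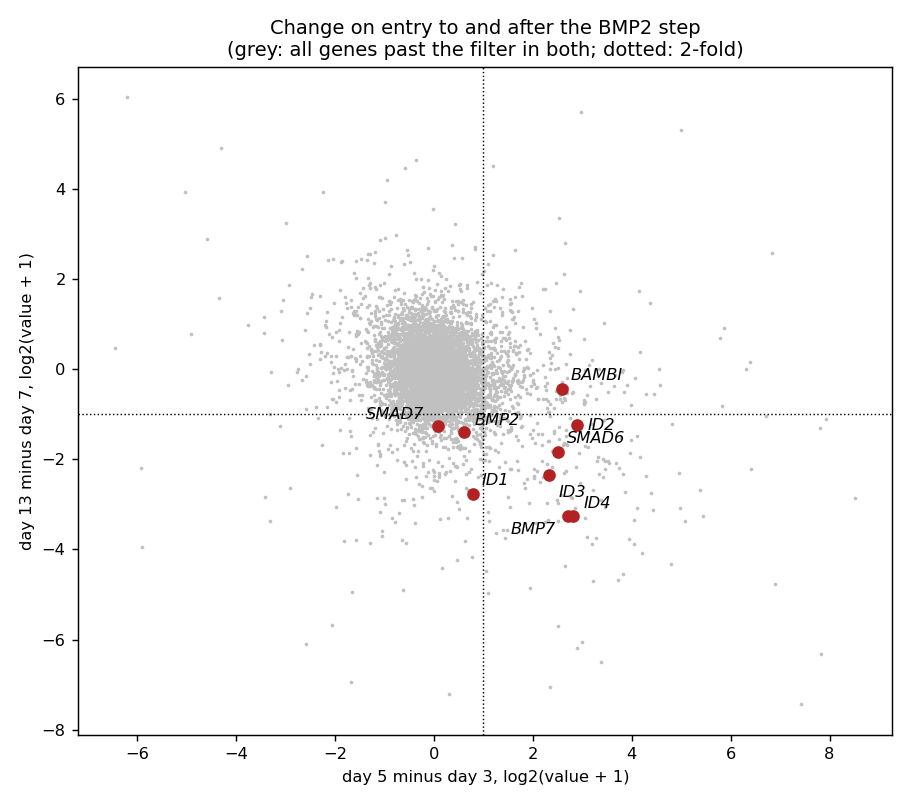
Difference in log2(value + 1) between days 5 and 3 (x axis) and days 13 and 7 (y axis) for 7871 genes (grey) and 9 of the 10 genes (red). BMP7, ID2, ID3, ID4 and SMAD6 lie in the lower right, beyond 2-fold on both axes, BAMBI fell by less than 2-fold after its rise, and ID1 fell without a 2-fold rise.

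In the last step, from day 13 to day 21, none of the 10 changed 4-fold, against 2.28% of all genes higher and 1.62% lower, and 8 of 10 had a value of at least 50 on either day. BMP4 was lower by 1.24, ID1 by 1.00 and ID3 by 0.92, and BMP2 was higher by 0.81. From day 0 to day 21, BMP2, BMP4, BAMBI and ID2 were at least 4-fold higher and none 4-fold lower, against 11.9% and 11.5% of all genes. ID1 (-1.49), ID3 (-1.90) and BMP7 (-1.77) ended lower than in the hESCs.

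How alike the 10 courses were was measured by Pearson's r of log2(value + 1) over the 10 libraries, which share the culture and the time axis, so r is a description. Of 45 pairs 39 were above 0 and 7 were at least 0.80. The highest was that of BAMBI and ID2 (0.95), followed by ID1 and ID3 (0.88) and ID1 and SMAD7 (0.84). Between those sets r was near 0, as for ID1 and BAMBI (-0.08) and ID3 and BAMBI (-0.02), and the lowest was that of BMP4 and ID3 (-0.30). SMAD6 was as near to BMP2 (0.82) as to ID4 (0.79).

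**Figure D4:**
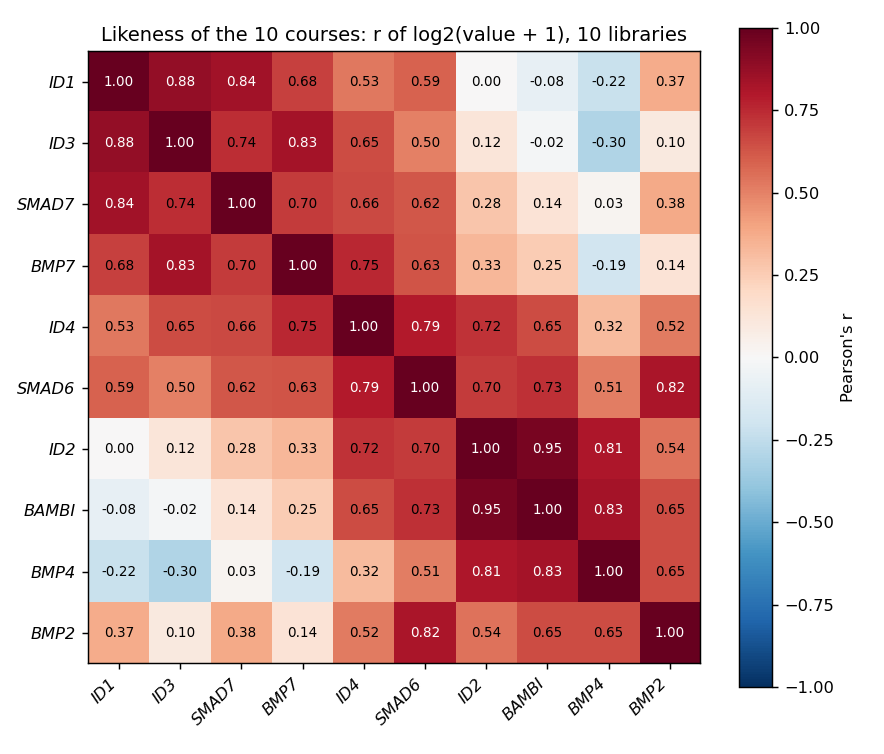
Pearson's r between the courses of the 10 genes over 10 libraries (log2(value + 1)). ID1, ID3, SMAD7 and BMP7 form a block at the upper left and ID2, BAMBI and BMP4 one toward the lower right, with r from -0.30 to 0.33 between the blocks.

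Among 10736 other genes with a value of at least 50, the gene most like SMAD6 was MSX2 (r = 0.984), a homeobox gene long used as a BMP readout, followed by KEL (0.969). The nearest to BAMBI were PITX1 (0.989) and ANXA4 (0.988), to ID2 HABP2 (0.982) and CHST9 (0.976), and to ID1 B4GALNT3 (0.984) and XXYLT1 (0.968). BMP4 was most like BASP1 (0.989) and ANXA1 (0.988), and BMP7 most like PODXL (0.978) and DIS3 (0.953). For BMP2 they were DLC1 (0.959) and CCDC92 (0.958), and for ID3 MAPK8 (0.953) and ARF3 (0.949). DIO2 (0.922), picked for ID4, and ZBTB33 (0.916) and ZBTB24 (0.903), picked for SMAD7, were less alike. With ranks in place of values, 1 of all 20 picks was kept, so the picks depend on the measure.

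The rest of the pathway was read from 5 lists of 66 genes, 46 of which were in the table. Of the other ligands 7 of 15 were found, and 6 were past the filter from day 3 to day 5. BMP5 and BMP6 rose at least 4-fold and GDF3 fell, against 2.85% and 2.24% of all genes. BMP6, which in liver is the main ligand for iron sensing, had values of 13 before treatment, 5, 6 and 1 on the Activin A days, 456 and 400 with BMP2, 98 and 40 with HGF and KGF, 4 on day 13 and 24 on day 21. Its log2 difference was 7.84 from day 3 to day 5 and -2.02 from day 7 to day 9. BMP5 went from 4 to 78 between days 3 and 5. GDF3, a Nodal-related ligand of pluripotent cells, went from 134 to 13. BMP1, a protease that also acts on collagens and the BMP inhibitor chordin, was higher in each library after day 3 than in the one before, from 21 up to 496 on day 21. With BMP5, BMP6 and BMP7, 3 BMP ligand transcripts rose at least 4-fold in the first library with BMP2 protein, and BMP2 rose by less (0.60).

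Of 10 receptors and co-receptors found among 12 listed, none of the 8 past the filter changed 4-fold from day 3 to day 5, against 2.85% of all genes higher and 2.24% lower, which is too few genes to tell them from the rest. For days 3, 5 and 7 the type I receptor BMPR1A had 336, 353 and 257, and the type II receptor BMPR2 had 310, 191 and 202. These receptors, like SMAD1, SMAD4, SMAD5 and UNC5B below, were picked after their values were seen. RGMA, a BMP co-receptor, fell from 112 at day 3 to 25 at day 7. ENG, a co-receptor typical of endothelium, rose from 3 at day 7 to 50 at day 9, as the summed endothelial markers went from 389 to 863. The part of endothelial cells in this was not tested.

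All 9 of the listed SMADs and their cofactors were found, and 8 were past the filter from day 3 to day 5 and to day 7. SMAD9 was the 1 that changed 4-fold in the BMP2 step. By that rule 2.85% of all genes rose and 2.24% fell by day 5, and 5.63% and 4.41% by day 7. SMAD9, a receptor-regulated SMAD that is itself a BMP target, had values of 4 before treatment, 5, 7 and 6 on the Activin A days, 108 and 159 with BMP2, 133 and 91 with HGF and KGF, 43 on day 13 and 34 on day 21. Its log2 difference was 3.96 at day 5 and 4.51 at day 7. SMAD1 (38, 41 and 40 at days 3, 5 and 7), SMAD5 (305, 252 and 342) and SMAD4 (186, 222 and 288) each stayed short of 2-fold over these days.

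Of the secreted inhibitors 10 of 15 were found, and 7 were past the filter from day 3 to day 5. BMPER rose at least 4-fold and CER1 and NBL1 fell, against 2.85% and 2.24% of all genes. CER1, which binds Nodal, BMP and Wnt ligands, stood at the ceiling of the scale on days 2 and 3 and had 9 on day 5. It fell by 10.87 on the log2 scale, a size that the ceiling limits. NBL1, a BMP antagonist, had 255 on day 3, then 12 and 2 with BMP2. BMPER, a modulator of BMP gradients, went the other way, from 14 on day 3 up to 474 and 186 with BMP2, and back to 21 by day 13. FST and NOG were picked after their values were seen. FST, the Activin and BMP binder follistatin, had 238 on day 3, 669 and 652 with BMP2 and 54 by day 13, and NOG, noggin, was listed at 0 up to day 3 and reached 44 on day 9. Across the start of the BMP2 step, CER1 and NBL1 were thus lower while BMPER was higher.

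Of 15 further targets 10 were found, and 4 were past the filter from day 3 to day 5. Among these, 3 rose at least 4-fold, MSX2 (31 to 352), the transcription factor TBX3 (42 to 470), which is needed for liver bud growth, and GATA3 (28 to 388). The exception, UNC5B, went from 64 to 114. MSX2 (-2.20), TBX3 (-3.06) and GATA3 (-2.20) were at least 4-fold lower at day 13 than at day 7, and HAND1 (2.11) and PRDM6 (3.37) were at least 4-fold higher, of 7 targets past the filter and against 2.46% and 3.08% of all genes. PRDM6 was named after its values were seen. HAND1, a mesoderm factor, and CDX2, a factor of gut and trophectoderm, were under the minimum of 50 on days 3 and 5 and met the 4-fold rule by day 7, although both already had larger values on day 5 than on day 3. HAND1 had 2 on day 3, 22 and 226 with BMP2 and 980 by day 13. CDX2 was listed at 0 on day 3 and had 48 and 116 with BMP2 and 197 by day 13. Over all 5 lists, 7 genes rose and 3 fell at least 4-fold from day 3 to day 5 among the 33 past the filter, against the 2.85% and 2.24% of all genes. All 7 were under 50 on day 3 and passed the filter only through their day 5 values. List members that were low on both days dropped out, so these counts, also those of single lists, are a description and no test.

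**Figure D5:**
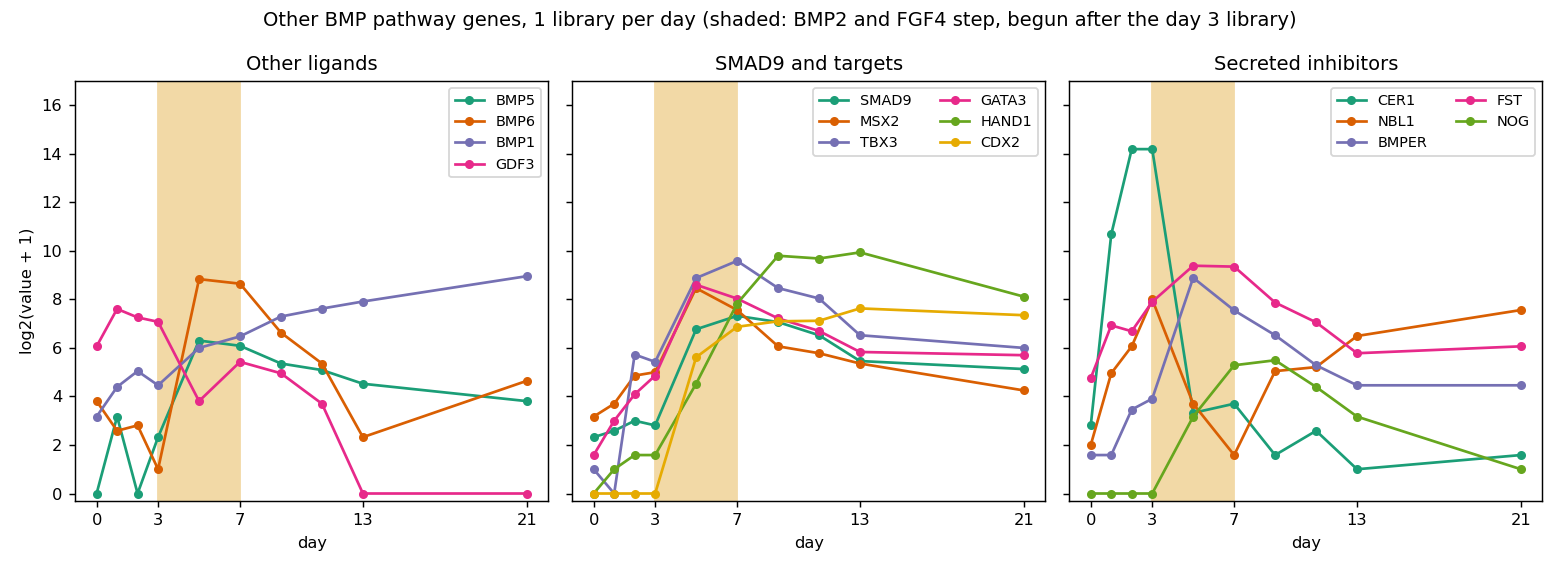
log2(value + 1) of other BMP pathway genes against the day, 1 library per point, with the step with BMP2 and FGF4 shaded, which began after the day 3 library. BMP6, SMAD9, MSX2, TBX3, GATA3 and BMPER stepped up between days 3 and 5, and CER1, NBL1 and GDF3 stepped down.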

How the data were processed

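Per the study's methods, reads of TruSeq libraries run on a MiSeq were quantified on an Ensembl transcriptome by RSEM 1.2.17, using Bowtie2 2.2.0 as the aligner, and EDASeq then normalized for GC content. The authors deposited 1 table of whole numbers, which is read here as scores and not as counts, because all libraries share nearly the same distribution. The methods name that transcriptome as mm10, a mouse build, although the table's gene identifiers are human. The processing notes list hg19 and mm10 without a role, and the table names no build, so intervals are printed as given. Columns were matched to samples by day.

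With 1 library per day no test was run. Differences of log2(value + 1) were computed in Python 3.11.15 with numpy 2.4.6 and pandas 2.3.3. The 10 genes and the 5 lists were chosen with earlier results of these data known. Named are the 10 genes, list members that changed 4-fold between days 3 and 5, 3 and 7 or 7 and 9, and the 2 genes most like each of the 10, of which 1 is not reported here. Upstream sequences are RefSeq's (GRCh38.p14). The code was tested on simulated data.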

Additional observations from a re-analysis of the deposited data

How the results depend on the processing

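Alternatives were pseudocounts of 5 and 0.1, rescaling by the median of ratios, a minimum of 20 or none, a 2-fold rule, a difference of means of at least 1 beside non-overlap, and rank correlation. The counts for days 3 to 5 and 3 to 7, and the 9 genes with days 5 and 7 above days 1 to 3, stayed within 1.5 times under each alternative run. With a pseudocount of 5, 1 gene instead of 2 rose 4-fold by day 3, and the one lost was SMAD6. By the 2-fold rule, 2 genes fell from day 7 to day 9, 8 fell and 1 rose from day 7 to day 13, and 2 fell from day 13 to day 21. Spearman correlation kept 1 of 20 picks. Of 60 log2 changes, 58 moved by less than the spread with a pseudocount of 5, 59 with 0.1 and 60 after rescaling. The libraries already shared nearly the same distribution, so rescaling could change little and is no check of the authors' normalization. Rescaling shifted all genes by 0.19 between days 0 and 21 and by at most 0.09 between the other days compared. It turned 1 sign, that of ID2 from day 13 to day 21 (-0.01 to 0.08). No paired analysis was possible because each day has 1 library. The scores hide the depth, so counting error is unknown.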
